A study of Homo sapiens with 4 samples.

Results

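The genes described here are 56 chromatin genes, which encode writers, erasers and readers of DNA and histone marks and factors that assemble nucleosomes. They were chosen as a list of gene symbols, and a probe was taken for a member if its RefSeq accession maps to that symbol. Of the 56 members, 54 had a matched probe, among 22439 genes matched on the array; *EED* and *KAT6A* had none. All 54 had a probe well above background in at least 1 group, and 53 had one on every array. The exception was *HDAC9*.

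A549 is an established cell line from a human lung adenocarcinoma. Its RNA was labeled with Cy3 and hybridized to 4 Agilent expression arrays, 1 sample on each. One array carried the sample given *miR-486-5p*, another the sample given *miR-486-3p*, and 2 carried mock samples. *miR-486-5p* and *miR-486-3p* are the strands of one miRNA precursor, and the arrays were made to find genes whose RNA falls when either strand is supplied. Both strands were delivered with Lipofectamine RNAiMAX, and the mock cells received that reagent alone, with no control miRNA. So RNA entry as such and the sequence of a strand cannot be told apart in a comparison with mock. Each strand has 1 array, which leaves its own variation unmeasured and every value imprecise. No label says that the mock arrays came from separate cultures, so p-values measure the spread between these samples, which may be technical.

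The values are log2 signals relative to the 75th percentile of their own array, and a difference is a strand's value less the average of both mocks, taken over the probes of a gene. Genes below −0.5 were counted as lower and genes above 0.5 as higher. Mock 1 minus mock 2 had an SD of 0.196 over 28246 probes that passed the background filter on all 4 arrays, and 2.80% of them lay more than 0.5 apart. All 4 arrays were also fitted with limma in 3 groups, with Benjamini-Hochberg adjustment over 33500 probes at 0.05. The only residual degree of freedom lies between the mock arrays, so the fit takes their spread for that of the strand arrays. A member is said to have risen or fallen only where limma called it.

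The label of the cells was checked against marker genes. Of 10 epithelial and A549 markers, 7 had a probe well above background on all 4 arrays, among them *KRT8*, *KRT18*, *AKR1C1* and *NQO1*. *ALDH1A1* counted among these through 1 of its 2 probes. *EPCAM* was dim, *AKR1B10* had no probe well above background on all 4 arrays, and *CDH1* was not well above background on any array. Of the alveolar type II markers, 3 of 6 had such a probe, among them the surfactant gene *SFTPC*, while the surfactant genes *SFTPA1* and *SFTPB* had none. Probes well above background on all arrays were also present for 4 of 4 matched leukocyte markers, 2 of 5 fibroblast markers and 2 of 4 endothelial markers. *COL1A2*, *LUM*, *PECAM1* and *KDR* were not well above background on any array. The summed scaled signal of the leukocyte markers was 0.833 on the *miR-486-5p* array, 1.24 on the *miR-486-3p* array and 0.951 and 0.965 on the mock arrays. Their part in the results below was not tested.

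DNA in the nucleus is wound around histones, and chemical groups on the histone tails and on cytosine mark regions as active or silent. Writers add methyl or acetyl groups, erasers remove them, and readers bind them and recruit other proteins. Each time a cell copies its DNA, chaperones must deposit new histones behind the fork and maintenance enzymes must copy the marks, so several of these genes are most active in dividing cells.

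After *miR-486-5p*, 16 of the 54 members were lower and 8 were higher, against 15.9% and 13.8% of 16024 genes. After *miR-486-3p*, 24 members were lower and 8 were higher, against 27.2% and 30.4% of 16446 genes. As shares, 29.6% and 44.4% of the members were lower and 14.8% were higher after each strand. With either strand the share of members lower lay above that of all genes. After *miR-486-3p* the share higher lay below that of all genes. These differences between shares were not tested, and the members were chosen with earlier results of these data known. Both comparisons share the mock arrays, so a deviation of these arrays enters both. In the same order, the members' medians were −0.12 and −0.46, against 0.03 and 0.06 over all genes.

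The split after *miR-486-3p* depended on the scaling. With each array scaled to its median, the median of all genes moved to −0.32, 34 members were lower and 4 were higher, and so were 41.7% and 17.8% of all genes. The members' median less that of all genes, which a scaling by 1 constant per array cannot change, was −0.52; it was −0.38 with quantile normalization and −0.27 with normexp. With a normexp background correction, *miR-486-5p* left 15 members lower and 3 higher, against 8.21% and 4.56% of genes. For *miR-486-3p* it left 20 and 3, against 18.7% and 15.2%.

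**Figure D1:**
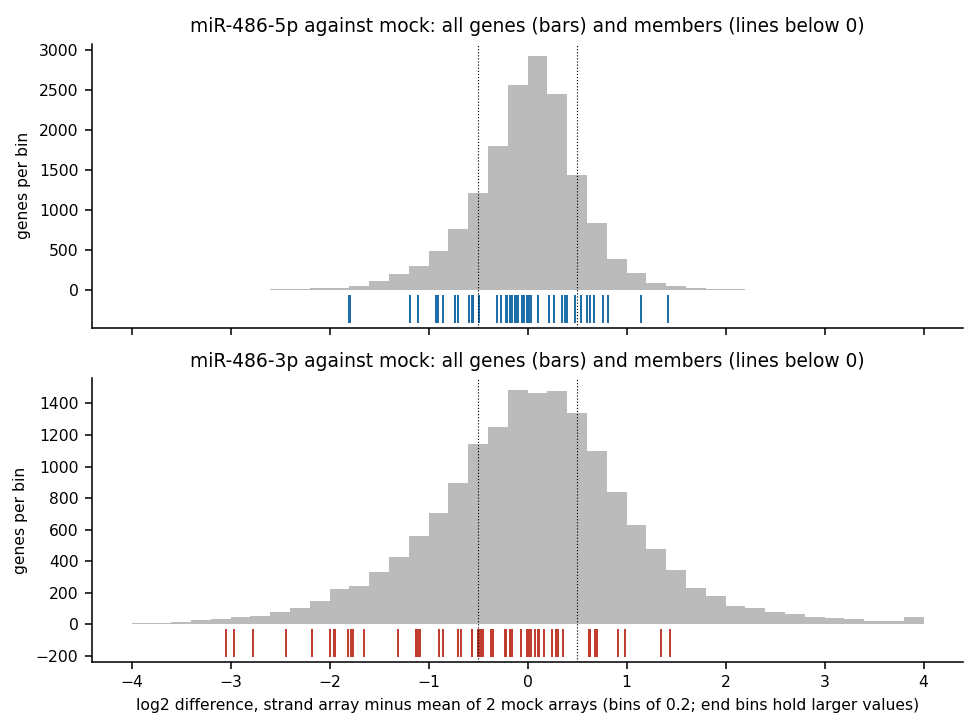
Histograms of the log2 difference of all genes (gray bars, genes per bin of 0.2) after *miR-486-5p* (top) and *miR-486-3p* (bottom), with 1 colored line below the axis for each of the 54 members and dotted lines at −0.5 and 0.5. In the top panel the members reach −1.81 and in the bottom panel −3.04, while none lies above 1.43.

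The *miR-486-5p* array lay below both mock arrays in 32 members and above both in 18, against 42.2% and 47.1% of 16662 genes. For *miR-486-3p* it was 36 and 15 members, against 44.9% and 49.5%. For *miR-486-5p*, limma called 7 members lower and 3 higher, against 6.62% and 3.53% of genes. For *miR-486-3p* the calls were 27 lower and 11 higher, against 30.3% and 30.7%. Median scaling changed the latter to 38 lower and 5 higher, against 44.2% and 19.2% of genes. The calls after *miR-486-5p* lie close to the threshold: the smallest adjusted p of any member from limma was 0.0475. On the authors' log2 values limma called 0 members for that strand, where 24 lower and 15 higher members had a probe with an unadjusted p below 0.05. For *miR-486-3p* the smallest adjusted p of limma was 0.00762.

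**Figure D2:**
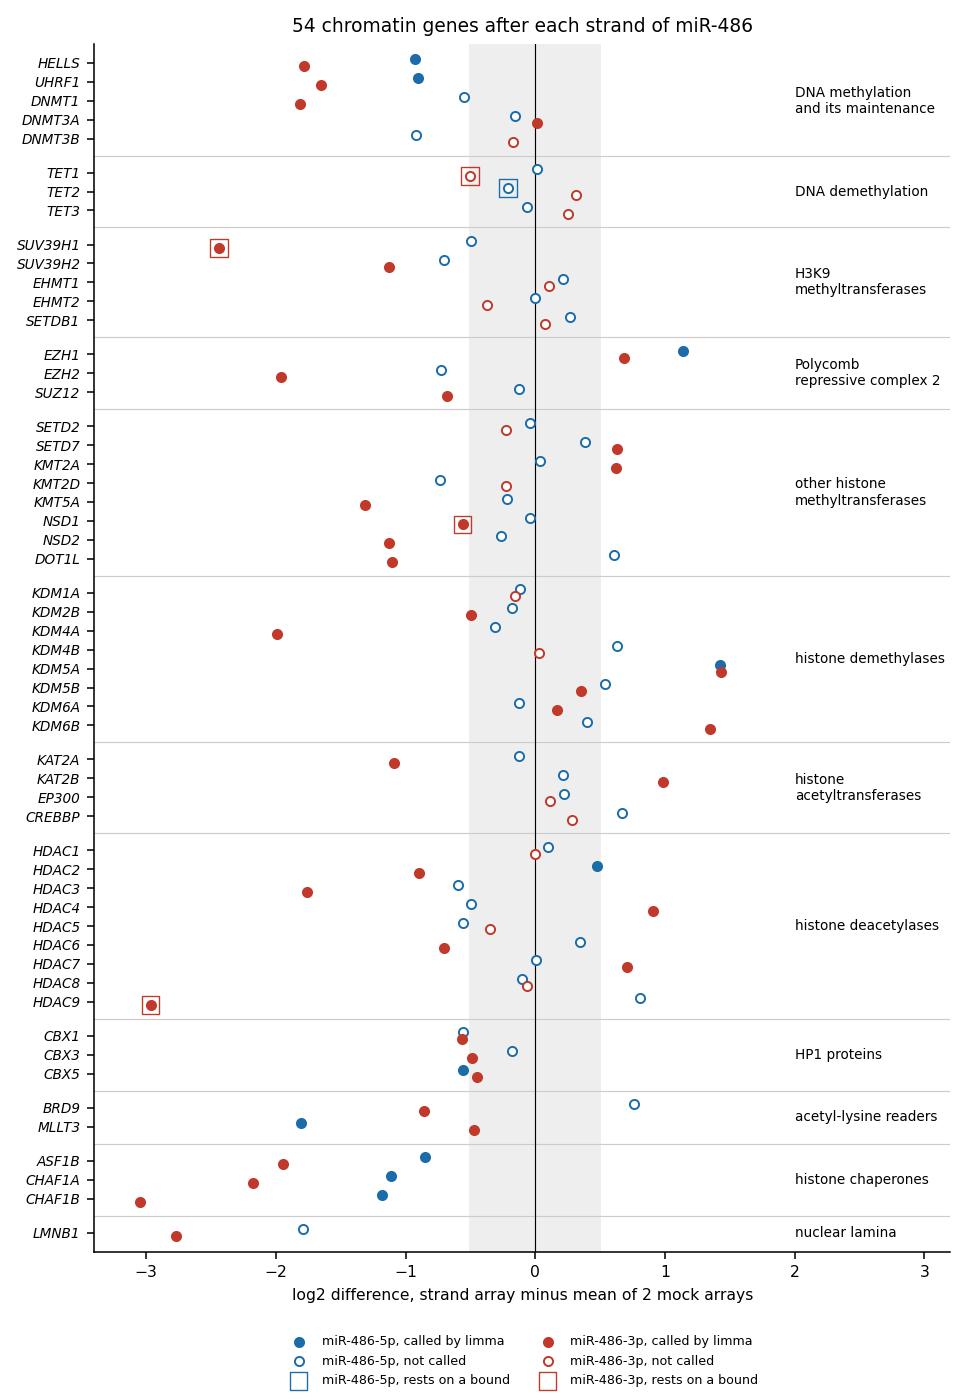
Each of the 54 members by role, with its log2 difference from the mock average for *miR-486-5p* in blue and for *miR-486-3p* in red; filled circles were called by limma, squares mark values that rest on a bound, and the gray band spans −0.5 to 0.5. All 3 histone chaperones and *LMNB1* lie left of the band after both strands, and *EZH1* and *KDM5A* lie right of it.

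*CHAF1B* and *CHAF1A* encode subunits of chromatin assembly factor 1, which places new H3 and H4 histones on freshly copied DNA. The log2 value of *CHAF1B* was 2.22 with *miR-486-5p*, 0.36 with *miR-486-3p*, and 3.43 and 3.37 in the mock arrays. Both strand arrays lay below both mock arrays, and the *miR-486-3p* array was the lowest. *CHAF1B* fell by 1.18 after *miR-486-5p* (2.27-fold) and by 3.04 after *miR-486-3p* (8.25-fold), with a limma SE of 0.0924 and limma adjusted p of 0.0475 and 0.00762. *CHAF1A* read 0.63 and −0.43 on the strand arrays, in the same order, against 1.72 and 1.77 in mock. As for *CHAF1B*, both strand arrays lay below both mock arrays and the *miR-486-3p* array was the lowest. *CHAF1A* fell by 1.11 and 2.18 with a limma SE of 0.0927. *ASF1B*, which hands H3 and H4 dimers to assembly factors, had values of 2.04 and 0.95 with the strands and 2.89 in each mock array. Here the mock arrays coincided at 2 decimals and both strands lay below them; *ASF1B* fell by 0.85 and 1.95 (limma adjusted p 0.0487 and 0.00762). All 3 chaperones were lower after both strands under every scaling, filter, background correction and choice of probe that was run.

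*LMNB1* encodes lamin B1, a filament of the nuclear envelope to which silent chromatin is anchored. The array values were 1.74 with *miR-486-5p*, 0.76 with *miR-486-3p*, 3.35 in mock 1 and 3.71 in mock 2. The mock arrays differed from each other more than for most members, and both strands were still below them. The difference was −1.79 after *miR-486-5p*, which limma did not call (adjusted p 0.0513), and *LMNB1* fell by 2.77 after *miR-486-3p* (6.82-fold, limma adjusted p 0.00965).

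**Figure D3:**
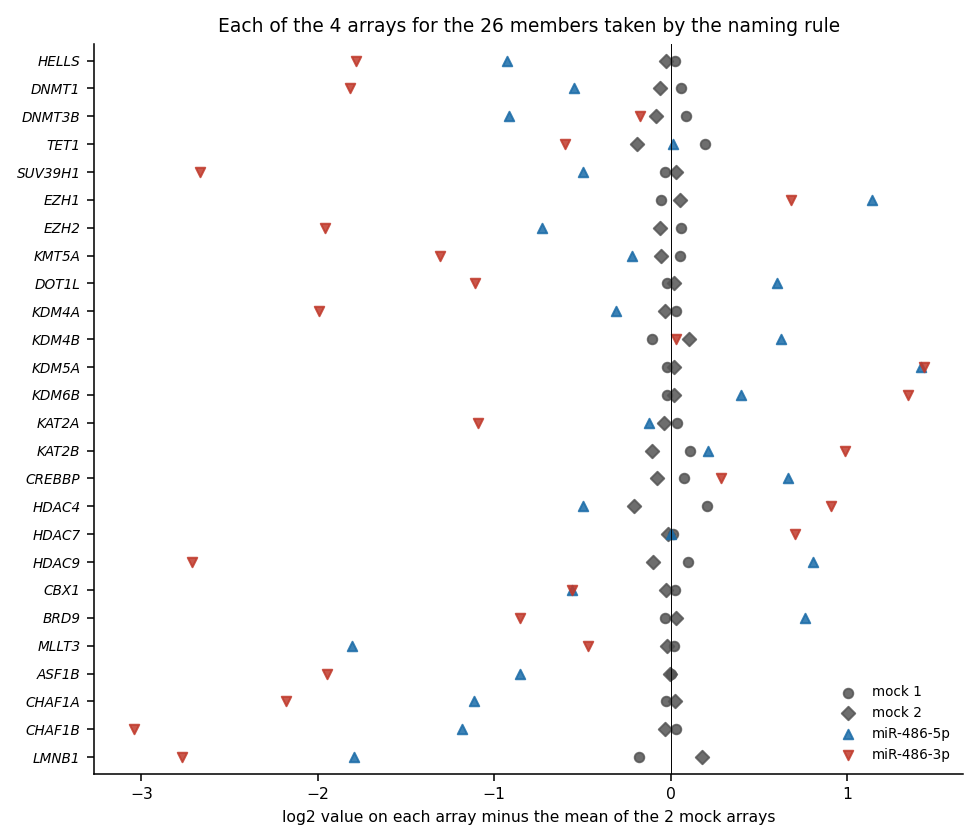
Log2 values on the 4 arrays, less the mock average, for the 26 members whose array values are given one by one; triangles are the strand arrays and gray symbols the mock arrays, and dim arrays are drawn at their measured value. For *CHAF1B* the strand arrays lie at −1.18 and −3.04, and for *KDM5A* they lie at 1.42 and 1.43.

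DNA methylation is kept through cell division by *DNMT1*, the maintenance methyltransferase, which *UHRF1* brings to newly copied DNA, and *HELLS*, a remodeling ATPase of the SNF2 family that opens nucleosomal DNA for methylation. *HELLS* had log2 values of 0.08 with *miR-486-5p*, −0.78 with *miR-486-3p*, and 1.03 and 0.98 in mock. Both strand arrays were below both mock arrays. It fell by 0.92 (1.90-fold) and by 1.78 (3.44-fold), with a limma SE of 0.0936 and limma adjusted p of 0.0475 and 0.00762. *UHRF1* fell by 0.91 and by 1.65. After *miR-486-5p* the calls of both rest on 1 of 2 probes, and the other probe of *HELLS* had a limma adjusted p of 0.0525. *DNMT1* stood at 3.89, 2.62, 4.50 and 4.38 on the same 4 arrays. Its *miR-486-3p* array was far below the others, and *DNMT1* fell by 1.81 (3.52-fold, limma adjusted p 0.00829), while its difference of −0.55 after *miR-486-5p* was not called.

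The de novo enzymes *DNMT3A* and *DNMT3B*, methylate DNA that was unmethylated before. *DNMT3B* read 0.43 with *miR-486-5p*, 1.17 with *miR-486-3p*, and 1.43 and 1.26 in mock. Here the *miR-486-5p* array was the low one. The difference of −0.92 after *miR-486-5p* was not called by limma (adjusted p 0.0551), nor was that of −0.17 after *miR-486-3p* (adjusted p 0.318). The strands themselves differed in *DNMT3B* by 0.74 (limma adjusted p 0.0432). The 3 probes of *DNMT3A* gave −0.65, −0.50 and 0.68 after *miR-486-5p*, where it was not called. In the same order of probes, they gave −0.23, 0.56 and −0.29 after *miR-486-3p*. So limma's call of this gene as higher rests on 1 probe and a mean of 0.02. With median scaling or quantile normalization the mean turned negative. *TET1*, *TET2* and *TET3*, which oxidize methylcytosine on the way to its removal, were not called after either strand. *TET1* read −0.92 with *miR-486-5p*, −1.54 with *miR-486-3p*, and −0.74 and −1.13 in mock, so that the first lay between the mock arrays. One of its 2 probes was not well above background with *miR-486-3p*, and the difference of −0.50 is therefore a bound; the other probe gave 0.05.

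Methylation of lysine 9 of histone H3 marks silent heterochromatin. *SUV39H1* writes its trimethylated form, and *SUV39H2* is its close relative. *SUV39H1* had log2 values of −1.51 with *miR-486-5p*, −3.69 with *miR-486-3p*, and −1.05 and −0.99 in mock. Both strands lay below mock, and the *miR-486-3p* array lay lowest. *SUV39H1* was at least 5.42-fold lower after *miR-486-3p* (limma adjusted p 0.00762); 1 of its 2 probes was not well above background there, and the other, measured on all arrays, gave −2.52. With normexp the difference of the gene was −0.70, and the size depends on that choice. The difference of −0.50 after *miR-486-5p* was not called (limma adjusted p 0.0693). *SUV39H2* fell by 1.13 after *miR-486-3p* and had −0.70 after *miR-486-5p*. *EHMT1* and *EHMT2*, which write the lower methylation states, and *SETDB1*, a trimethylase recruited by zinc finger repressors, were within 0.5 of mock after both strands. For *SETDB1* after *miR-486-3p* this is a mean of probes at −0.52 and 0.44, each called by limma in its own direction, and of 0.31. Heterochromatin protein 1 binds the same mark, and its 3 genes *CBX1*, *CBX3* and *CBX5* all fell after *miR-486-3p*, by 0.56, 0.49 and 0.45, where limma called 30.3% of all genes lower and only *CBX1* passed the limit of 0.5. *CBX5* was not called with quantile normalization, *CBX3* without a filter, nor either on the authors' values, and *CBX1* and *CBX3* were not if every probe had to be called. *CBX1* was at 3.52 and 3.51 on the strand arrays and at 4.10 and 4.04 in mock. The strand arrays nearly coincided, and both were lower than mock, although limma did not call the −0.56 after *miR-486-5p* (adjusted p 0.0636). *CBX5* fell after *miR-486-5p* by 0.56, with −0.15 and −0.96 from its 2 probes.

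Polycomb repressive complex 2 methylates lysine 27 of histone H3, and *EZH2* and *EZH1* encode its alternative catalytic subunits. *EZH2* read 2.62 with *miR-486-5p*, 1.39 with *miR-486-3p*, and 3.41 and 3.29 in mock. *EZH1* read 0.74, 0.28, −0.45 and −0.34 on the same arrays. Both strand arrays were below mock for *EZH2* and above mock for *EZH1*. *EZH2* fell by 1.96 after *miR-486-3p* (3.89-fold, limma adjusted p 0.00796), and the −0.73 after *miR-486-5p* was not called (limma adjusted p 0.0578). *EZH1* rose by 1.14 after *miR-486-5p* (2.21-fold, limma adjusted p 0.0475) and by 0.68 after *miR-486-3p* (1.60-fold, limma adjusted p 0.0248); the latter was 0.31 and not called with median scaling. *SUZ12*, a core subunit, fell by 0.68 after *miR-486-3p* and had −0.12 after *miR-486-5p*.

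Among the other histone methyltransferases, *KMT5A* writes single methyl groups on lysine 20 of histone H4, and *DOT1L* methylates lysine 79 of histone H3. *KMT5A* had log2 values of 0.84 with *miR-486-5p*, −0.25 with *miR-486-3p*, and 1.11 and 1.00 in mock, and fell by 1.31 after *miR-486-3p* (limma adjusted p 0.00925). *DOT1L* stood at 0.51 with *miR-486-5p* and −1.21 with *miR-486-3p*, between which lay the mock arrays at −0.12 and −0.08. The strands were thus on opposite sides of mock. The 0.60 after *miR-486-5p* was not called (limma adjusted p 0.0572), *DOT1L* fell by 1.11 after *miR-486-3p*, and the direct difference between strands was −1.71 (limma adjusted p 0.0119). *NSD2*, which dimethylates lysine 36 of histone H3, fell by 1.13 after *miR-486-3p*, and its relative *NSD1* fell by 0.56, a bound. *SETD7* and *KMT2A*, which methylate lysine 4 of histone H3, rose after *miR-486-3p* by 0.63 and 0.62; with median scaling *SETD7* was not called. *KMT2D*, of the same family as *KMT2A*, was not called at −0.73 (*miR-486-5p*) or −0.22 (*miR-486-3p*).

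Of the 8 histone demethylases, 3 were higher after *miR-486-5p* and none lower, against 13.8% and 15.9% of all genes. Among those 3, limma called *KDM5A* but neither *KDM4B* nor *KDM5B*. After *miR-486-3p*, 2 were higher and 1 was lower, against 30.4% and 27.2%. For the latter strand limma called 4 higher and 2 lower, against 30.7% and 30.3%. *KDM5A*, which removes methyl groups from lysine 4 of histone H3, gave −2.72 with *miR-486-5p*, −2.71 with *miR-486-3p*, and −4.16 and −4.12 in mock. The strand arrays were alike, and both were above mock. *KDM5A* rose by 1.42 and by 1.43 (2.68-fold and 2.70-fold, limma adjusted p 0.0475 and 0.00857) from a dim probe, and with normexp the differences were 0.29 and 0.39. *KDM6B* acts on lysine 27 of histone H3, against the mark of Polycomb. Its values were −2.03, −1.09, −2.45 and −2.41, with the *miR-486-3p* array highest, and it rose by 1.34 after *miR-486-3p* (2.54-fold, limma adjusted p 0.00886), or by 0.54 with normexp. *KDM4A*, which acts on lysines 9 and 36 of histone H3, went the other way. It read 1.46 with *miR-486-5p*, −0.22 with *miR-486-3p*, and 1.80 and 1.74 in mock, and fell by 1.99 after *miR-486-3p* (3.98-fold, limma adjusted p 0.00762). *KDM4B*, its paralog, was at 0.67 with *miR-486-5p*, above mock at −0.06 and 0.15, and at 0.07 with *miR-486-3p*, between them. Neither difference of *KDM4B* was called. That of 0.03 after *miR-486-3p* turned negative with median scaling, with quantile normalization, in the authors' values and with mock 1 left out. *KDM2B* fell by 0.50 and *KDM5B* rose by 0.36 after *miR-486-3p*, each called from 1 of its 2 probes. The probes gave −0.67 and −0.33 for *KDM2B*, and 0.49 and 0.23 for *KDM5B*. Neither mean passed the limit of 0.5, and with median scaling *KDM5B* turned negative. *KDM6A* was called higher after *miR-486-3p* from 1 probe at 0.45, while the other gave −0.12, and the call turned with median scaling; the first probe's spot on the *miR-486-5p* array was an outlier and was left out.

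Histone acetyltransferases open chromatin by adding acetyl groups, and *KAT2A* and *KAT2B* are alternative enzymes of the same coactivator complexes. *KAT2A* gave 2.71 with *miR-486-5p*, 1.74 with *miR-486-3p*, and 2.87 and 2.80 in mock. *KAT2B* gave 0.97, 1.74, 0.86 and 0.64. The *miR-486-3p* array was the lowest of the 4 for *KAT2A* and the highest for *KAT2B*. After *miR-486-3p*, *KAT2A* fell by 1.09 (2.13-fold, limma adjusted p 0.0114) and *KAT2B* rose by 0.99 (1.98-fold, limma adjusted p 0.0227); neither was called after *miR-486-5p*. The broad coactivators *CREBBP* and *EP300* were not called after either strand. *CREBBP* was at 1.58 and 1.20 on the strand arrays and 0.99 and 0.84 in mock, so both strands were above mock; the 0.29 after *miR-486-3p* turned to −0.09 with median scaling.

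Deacetylases remove these groups. After *miR-486-3p*, 4 of 9 deacetylase genes were called lower and 2 were called higher by limma, 44.4% and 22.2% against 30.3% and 30.7% of all genes. *HDAC9*, of class IIa, read −2.05 with *miR-486-5p* and −5.58 with *miR-486-3p*, against −2.76 and −2.96 in mock. It was not well above background with *miR-486-3p*, so the fall is a bound. The bound was taken from 1 of its 2 probes, which was at least 7.81-fold lower. Its other probe was also not well above background in mock 2 and was left out of the difference. For that probe limma estimated −2.08, and without a filter the mean of both probes was −2.72. With normexp the difference was −0.49, so its size depends on the background correction. The 0.81 after *miR-486-5p* was not called (limma adjusted p 0.0612). *HDAC4*, of the same class, read −2.35, −0.95, −1.65 and −2.06. Its *miR-486-3p* array was above both mock arrays and its *miR-486-5p* array below both. *HDAC4* rose by 0.91 after *miR-486-3p* (1.88-fold, limma adjusted p 0.0146 for 1 probe and 0.168 for the other), and *HDAC7*, also of class IIa, rose by 0.70 from mock values of 2.13 and 2.11 to 2.82, with 2.12 for *miR-486-5p*; with median scaling its rise was 0.33 and not called. The class I gene *HDAC3* fell by 1.76 after *miR-486-3p* and had −0.60 after *miR-486-5p*. *HDAC2* fell by 0.90 after *miR-486-3p*. Its call as higher after *miR-486-5p*, with a mean of 0.47, rests on a dim probe at 1.36, while the bright probe gave −0.41. That call was lost with normexp, with an intensity trend, with 1 value per gene and if every probe had to be called. *HDAC6*, which acts largely on tubulin in the cytoplasm, fell by 0.70 after *miR-486-3p*, with −0.18 and −1.23 from its 2 probes. *HDAC1*, *HDAC5* and *HDAC8* were called after neither strand. For *HDAC8* after *miR-486-3p*, limma called 1 probe lower at −0.53 and 1 higher at 0.63, so the gene has no call.

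Among the readers of acetyl groups, *MLLT3* encodes AF9, a YEATS-domain protein that binds acetylated histones and recruits DOT1L. Its log2 values were −2.68 with *miR-486-5p*, −1.34 with *miR-486-3p*, and −0.85 and −0.89 in mock. The *miR-486-5p* array was far below the other 3. *MLLT3* fell by 1.81 after *miR-486-5p* (3.50-fold, limma SE 0.0898, adjusted p 0.0475), with −1.57 and −2.05 from its 2 probes and −0.61 under normexp. After *miR-486-3p* its mean was −0.47, but the brighter probe gave 0.03 and the dimmer one −0.97, so the call there rests on 1 probe. *BRD9*, the bromodomain subunit of a SWI/SNF complex, had 2.08 with *miR-486-5p* and 0.47 with *miR-486-3p*, against 1.29 and 1.36 in mock. The strands lay on opposite sides of mock. The 0.76 after *miR-486-5p* was not called (limma adjusted p 0.0525), and *BRD9* fell by 0.86 after *miR-486-3p* (limma adjusted p 0.0151).

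Probes of one gene did not always give the same answer. For each strand, 26 members had 2 or more probes in use, and their probes differed in sign in 11 members after *miR-486-5p* and in 7 after *miR-486-3p*. If every probe of a member had to be called by limma, *miR-486-5p* kept 4 lower and 2 higher members (4.83% and 2.25% of all genes), while *miR-486-3p* kept 20 and 6 (25.7% and 25.6%).

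**Figure D4:**
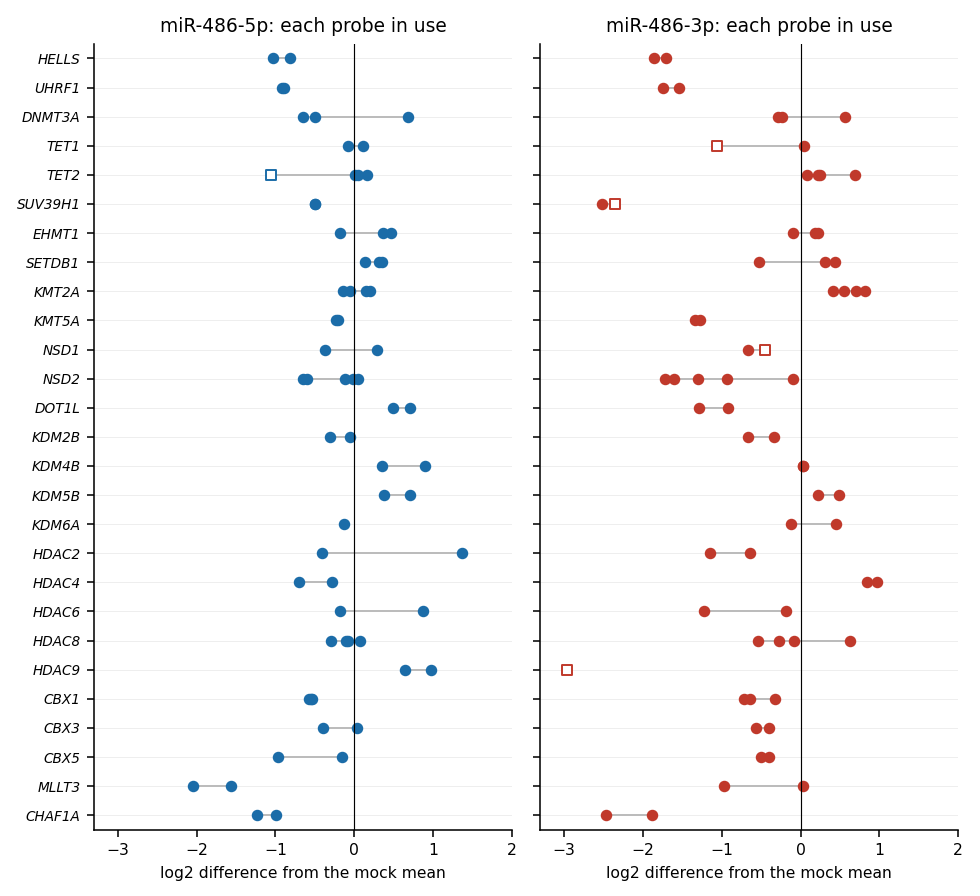
The log2 difference from the mock mean of each probe in use, for the 27 members with 2 or more probes in limma's fit, after *miR-486-5p* (left) and *miR-486-3p* (right); open squares are bounds and gray lines join the probes of a gene. *HDAC2* spans −0.41 to 1.36 after *miR-486-5p*, while both probes of *HELLS* lie below −0.8.

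A group of 11 members was set apart for a link to DNA replication or to the cell cycle, which other members may have too. These 11 are *HELLS*, *UHRF1*, *DNMT1*, *SUV39H1*, *EZH2*, *KMT5A*, *CBX5*, *ASF1B*, *CHAF1A*, *CHAF1B* and *LMNB1*. They were grouped with earlier results of these data in view, so their counts are a description. Of these 11, *miR-486-5p* left 9 lower, with a median of −0.85, and *miR-486-3p* left 10 lower, with a median of −1.95; none was higher, and all 11 were below 0 after both strands under each alternative run. limma called 6 and 11 of them lower, against 6.62% and 30.3% of all genes. Without them, 7 of 43 members were lower and 8 higher after *miR-486-5p*, and 14 were lower and 8 higher after *miR-486-3p*. As shares, 16.3% and 32.6% of the 43 were lower, against 15.9% and 27.2% of all genes, and 18.6% were higher with each strand, against 13.8% and 30.4%. Since the 11 were grouped with results in view, what is left without them depends on that choice. With median scaling, 53.5% of the 43 were lower and 9.30% higher after *miR-486-3p*, against 41.7% and 17.8%.

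Genes of S phase outside the members were lower too: 18 of 18 after each strand, with medians of −0.98 and −1.98. So were 11 of 11 matched genes of G2 and M phase, with medians of −1.08 and −2.86. Of all genes, 15.9% and 27.2% were lower. After *miR-486-5p* limma called most, but not all, genes of either list lower. These arrays measure bulk RNA, in which fewer cells in a phase and less RNA per cell cannot be told apart, and the part of the cell cycle in the members' values was not tested.

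Promoter sequences were read for these members because they were lower together. RefSeq promoters of GRCh38.p14, from 250 bases before to 50 after each start, were matched to 53 of the 56 members in 91 windows. They were searched on both strands for the E2F letters TTTCCCGC, TTTCGCGC, TTTGCCGC and TTTGGCGC, for CCAAT, and for the cell cycle homology letters TTTGAA. E2F letters were in 15.1% of the matched members and 3.99% of 27305 genes. They were in 4 of the 11 members above, *HELLS*, *UHRF1*, *DNMT1* and *EZH2*. CCAAT was in 45.3% of the matched members, 9 of the 11 and 39.7% of all genes. TTTGAA was in 13.2% of the matched members, 1 of the 11 (*ASF1B*) and 18.2% of all genes. The 250 bases before the start are printed for 4 members that limma called lower after both strands, 5′ to 3′ along the gene, with E2F letters and CCAAT of either strand in capitals. In *HELLS* (chr10:94545538-94545787, plus strand) the E2F letters begin 76 and 8 bases before the start and CCAAT 194 before it. In *UHRF1* (chr19:4909251-4909500, plus strand, the first of 3 starts) the E2F letters begin 14 and CCAAT 86 bases before it. *ASF1B* (chr19:14136590-14136839, minus strand) holds CCAAT 219, 140 and 53 bases before its start. It also holds TTTGAA, which is left in lower case. *CHAF1B* (chr21:36385142-36385391, plus strand) holds none of these letters. No motifs overlap in these windows, and a match describes letters, not a bound site or a cause.
HELLS: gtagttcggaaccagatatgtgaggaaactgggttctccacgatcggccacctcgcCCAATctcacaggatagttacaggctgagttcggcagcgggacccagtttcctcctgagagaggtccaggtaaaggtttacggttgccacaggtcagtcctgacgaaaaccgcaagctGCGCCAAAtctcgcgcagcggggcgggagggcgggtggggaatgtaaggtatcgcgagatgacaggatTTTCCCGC
UHRF1: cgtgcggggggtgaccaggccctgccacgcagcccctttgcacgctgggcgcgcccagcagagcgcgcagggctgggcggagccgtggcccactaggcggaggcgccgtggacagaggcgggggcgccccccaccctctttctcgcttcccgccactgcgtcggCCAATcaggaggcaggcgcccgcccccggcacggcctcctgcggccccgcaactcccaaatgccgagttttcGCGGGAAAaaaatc
ASF1B: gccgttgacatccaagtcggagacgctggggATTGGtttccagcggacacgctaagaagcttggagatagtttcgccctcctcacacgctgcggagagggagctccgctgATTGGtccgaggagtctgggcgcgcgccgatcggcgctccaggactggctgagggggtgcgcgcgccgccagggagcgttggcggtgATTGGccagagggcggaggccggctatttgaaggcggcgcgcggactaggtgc
CHAF1B: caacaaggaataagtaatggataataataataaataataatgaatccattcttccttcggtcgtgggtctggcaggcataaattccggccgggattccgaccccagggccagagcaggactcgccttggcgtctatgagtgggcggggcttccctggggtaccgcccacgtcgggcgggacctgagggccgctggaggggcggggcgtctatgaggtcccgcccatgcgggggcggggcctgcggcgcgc

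The strands were also compared directly. Between the *miR-486-3p* and the *miR-486-5p* array, limma called 21 members lower and 8 higher, against 26.3% and 25.7% of 16662 genes. With median scaling it called 32 lower and 4 higher, against 37.5% and 18.1%. The 8 were *DNMT3B*, *KMT2A*, *KMT2D*, *KDM6B*, *HDAC4*, *HDAC7*, *HDAC8* and *MLLT3*, of which *KDM6B*, *HDAC4* and *MLLT3* were still called with median scaling. *HDAC8*, with a mean of 0.03, turned negative with median scaling, with quantile normalization and in the authors' values. With the scaling used here, the lowest differences were in *HDAC9*, *SUV39H1*, *CHAF1B*, *DOT1L*, *KDM4A* and *BRD9*. For *HDAC9*, *DOT1L* and *BRD9* the strands lay on opposite sides of mock.

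Other chromatin genes were given in 11 lists with 195 genes, of which 188 had a difference. After *miR-486-5p*, 30 were lower and 26 higher, and limma called 13 and 6. After *miR-486-3p*, 55 were lower and 44 higher, and limma called 65 and 46. Their medians were 0.02 and −0.05. The shares lower, 16.0% and then 29.3%, are near those of all genes, while the share higher after *miR-486-3p*, 23.4%, is below the 30.4% of all genes. With median scaling 47.3% were lower and 10.6% higher after that strand, against 41.7% and 17.8%. For each list below, the shares of all genes lower and higher were 15.9% and 13.8% after *miR-486-5p*, and 27.2% and 30.4% after *miR-486-3p*. In the same order, limma called 6.62% and 3.53%, and 30.3% and 30.7%, of all genes.

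**Figure D5:**
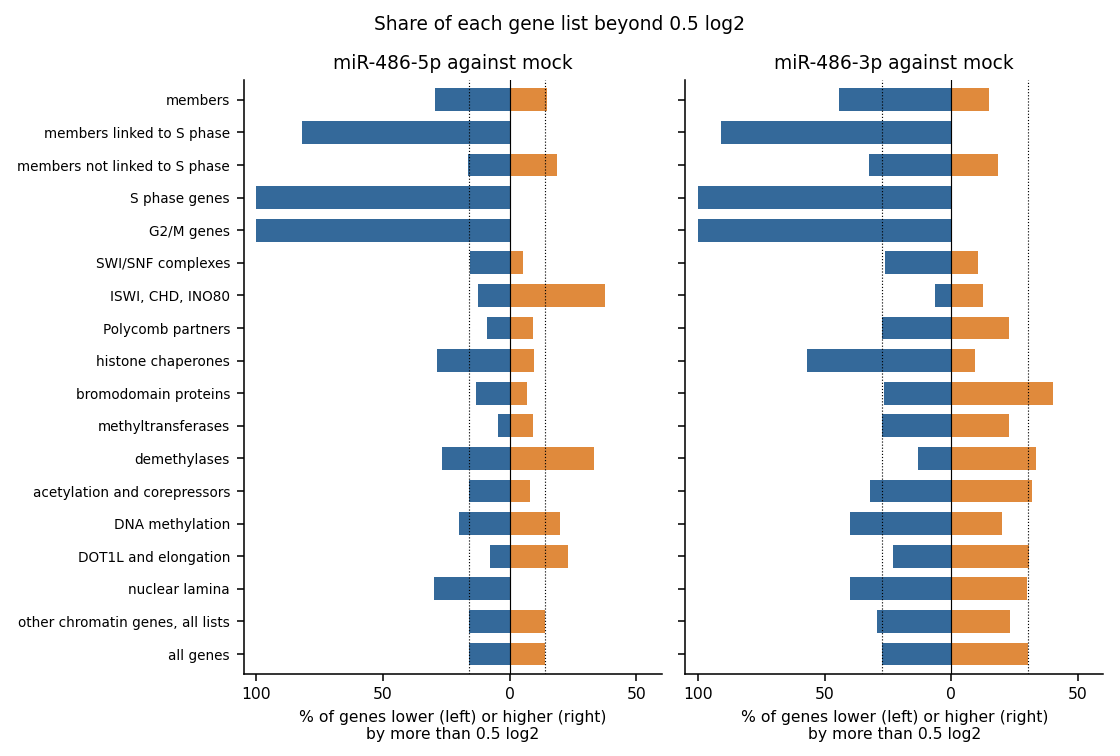
Share of genes, in percent, that lay more than 0.5 log2 lower (left, blue) or higher (right, orange) with each strand, for members, their subsets, S phase and G2/M genes, the other chromatin lists and all genes; dotted lines mark all genes. Members labeled as linked to S phase are those set apart for a link to DNA replication or to the cell cycle. They reach 81.8% and 90.9% lower, while the other chromatin genes together stand at 16.0% and 29.3%.

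Further histone chaperones were the list furthest to the lower side after *miR-486-3p*: 12 of 21 were lower and 2 higher, with a median of −0.65, and limma called 13 lower and 3 higher. As shares, 57.1% were lower and 9.52% higher, against 27.2% and 30.4% of all genes. By limma it was 61.9% and 14.3%, against 30.3% and 30.7%. With *miR-486-5p*, 6 were lower and 2 higher by more than 0.5, and limma called 3 and 1. *HJURP*, which loads the centromeric histone, fell by 0.93 and 3.22. *NASP*, which carries H3 and H4, rose by 0.95 after *miR-486-5p* and fell by 1.98 after *miR-486-3p*. The highest of the list after *miR-486-3p*, *UBN2* and *ATRX*, rose by 2.01 and 1.00.

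In the list of further DNA methylation genes, 2 of 10 were lower and 2 higher after *miR-486-5p*, and 4 lower and 2 higher after *miR-486-3p*. *CDCA7*, the activating partner of *HELLS*, fell by 1.18 and 1.78, and its paralog *CDCA7L* by 1.22 and 1.92. *TDG*, which excises oxidized methylcytosine, rose by 1.12 and 0.89. Of 10 lamina genes, 3 were lower after *miR-486-5p* and none higher, and 4 were lower and 3 higher after *miR-486-3p*. *TMPO*, which encodes lamina-associated polypeptide 2, fell by 0.93 and 1.61, and *LMNB2* fell by 1.95 after *miR-486-3p*, while *LEMD2* rose by 0.82.

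The other demethylases showed 4 lower and 5 higher of 15 after *miR-486-5p*, and 2 lower and 5 higher after *miR-486-3p*. *KDM7A*, which acts on lysines 9 and 27 of histone H3, rose by 2.03 and 2.51, and *KDM5C*, a paralog of *KDM5A*, rose by 1.11 and 1.35. The lowest of that list, *RIOX1* and *KDM8*, fell by 1.59 and 1.43 after *miR-486-3p*. Among 22 partners of Polycomb, 2 were lower and 2 higher after *miR-486-5p*, and 6 lower and 5 higher after *miR-486-3p*. *PHF19*, which tethers the complex to chromatin, fell by 0.38 and 1.92, and *PHC3* rose by 1.37 after *miR-486-3p*. Of 22 further methyltransferases, 1 was lower and 2 higher after *miR-486-5p*, and 6 lower and 5 higher after *miR-486-3p*. *CARM1*, an arginine methyltransferase, fell by 1.70 and *KMT2C* rose by 1.38 after *miR-486-3p*.

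The elongation partners of *MLLT3* had 1 of 13 lower and 3 higher after *miR-486-5p*, and 3 lower and 4 higher after *miR-486-3p*. *MLLT1*, the paralog of *MLLT3*, had −0.11 after *miR-486-5p* and fell by 1.62 after *miR-486-3p*, while *EAF1* rose by 1.47. Among 15 bromodomain proteins, 2 were lower and 1 higher after *miR-486-5p*, and 4 lower and 6 higher after *miR-486-3p*. *ATAD2*, a bromodomain ATPase, fell by 1.92 after *miR-486-3p*, and *BRWD1* rose by 1.34.

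Of 19 SWI/SNF genes, 3 were lower and 1 higher after *miR-486-5p*, and 5 lower and 2 higher after *miR-486-3p*. *SMARCA2*, an ATPase gene, rose by 1.33 after *miR-486-3p*, and the subunit gene *SMARCD1* fell by 1.27. Among 16 ISWI, CHD and INO80 remodelers, 2 were lower and 6 higher after *miR-486-5p*, and 1 lower and 2 higher after *miR-486-3p*. With *miR-486-5p* these are shares of 12.5% and 37.5%, against 15.9% and 13.8% of all genes. However, 0 of those 6 higher remodelers passed the limma threshold, and 1 of the 2 lower ones did. For 25 genes of acetylation and corepressors the numbers were 4 lower and 2 higher after *miR-486-5p*, and 8 lower and 8 higher after *miR-486-3p*. *HDAC10* rose by 1.93 and *SIRT2* fell by 1.41 after *miR-486-3p*.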

How the data were processed

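Per the file headers, the intensity of each spot was read from 1 slide in 1 scan and corrected for background by Agilent Feature Extraction 12.1.1.1. A log2 table of the same arrays was deposited by the authors, with quartiles of 0.15, 2.76 (the median) and 6.28 on each, as after quantile normalization; how it was made is not given in the sources used here. The intensity was analyzed and the table served as an alternative. Control spots were left out, as were outlier spots, of which there were 50 to 72 per array. Then log2 was taken and the 75th percentile of each array subtracted. A probe was used where it was well above background on all arrays of a group. A group well above background on none was raised to the lowest such signal of each array, which gives a bound. Probes were named by RefSeq accession (31104 of 33080 matched). limma 3.58.1 was run in R 4.3.3 and tested on simulated data. limma called a gene if at least 1 probe was called, none in the opposite direction, and the mean had that sign. Members and lists were chosen with earlier results of these data known. Array values were printed for *HELLS*, *SUV39H1*, *BRD9* and *MLLT3*, for the 6 lowest and 6 highest members per strand with all probes well above background, and for the largest difference in each role. Of each further list, the 2 lowest and 2 highest genes after *miR-486-3p* could be named; some genes are not reported here. Alternatives were other scalings, normexp (offset 50, on median signals), filters, probes, limits, each mock array left out and the methods' t-test.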

Additional observations from a re-analysis of the deposited data

Results flagged for a closer look

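In 18 of the 26 members whose array values are given, the effect of one strand differed from that of the other by limma's direct comparison of the strand arrays, each of which is a single array. In that comparison limma called 26.3% of all genes lower and 25.7% higher, and most of the 26 were chosen for large differences. The log2 difference, *miR-486-3p* minus *miR-486-5p*, was −1.86 for *CHAF1B*, −1.71 for *DOT1L*, −1.68 for *KDM4A*, −1.62 for *BRD9*, −1.27 for *DNMT1* and −1.23 for *EZH2*. It was −1.09 for *ASF1B*, −1.09 for *KMT5A*, −1.07 for *CHAF1A*, −0.97 for *KAT2A* and −0.86 for *HELLS*. For *HDAC9* and *SUV39H1* it was −2.34 and −1.94, both bounds. It was above 0 for *HDAC4* at 1.40, *MLLT3* at 1.34, *KDM6B* at 0.95, *DNMT3B* at 0.74 and *HDAC7* at 0.70; with median scaling *DNMT3B* and *HDAC7* were not called. *DNMT3B* was also not called without a filter or on the authors' values, and the call of *HDAC4* rests on 1 of its 2 probes.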

How the results depend on the processing

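With 1 array per strand and 1 residual degree of freedom, limma's calls rest on the spread of the mock arrays. Without either mock array no residual degree of freedom is left, so only differences were recomputed. No paired analysis was possible because each strand has 1 array. No spot was saturated and all arrays lay on 1 slide, so neither alternative applied. The values of *KDM5A*, *HDAC9* and *SUV39H1* rest at least in part on dim probes. For each change below the cause was not tested, except where fewer members pass by construction.

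Leaving out a mock array, the members lower numbered 16 to 17 after *miR-486-5p* and 25 to 25 after *miR-486-3p*, and those higher 8 to 9 and 8 to 8. Their medians ranged from −0.13 to −0.12 and from −0.47 to −0.43. With a limit of 1, 4 were lower and 2 higher after *miR-486-5p* (4.61% and 2.53% of all genes), and 17 lower and 2 higher after *miR-486-3p* (14.1% and 14.8%). Their median after *miR-486-3p* was −0.83 with median scaling, −0.18 with normexp and −0.36 with the brightest probe. Median scaling left 4 members higher after *miR-486-3p*, and normexp left 3 higher after each strand. Among the named members normexp also gave 0.47 for *HDAC4*, −0.62 for *DOT1L*, −0.05 for *MLLT3* and −0.01 for *TET1* after *miR-486-3p*. After *miR-486-5p* it gave 0.75 for *EZH1*, 0.22 for *HDAC9*, 0.29 for *KDM4B*, −0.21 for *SUV39H1*, −0.17 for *HDAC4* and 0.14 for *KDM6B*. Of 466 recomputed differences of the 26 members, 1 of a called member changed sign: *MLLT3* after *miR-486-3p* was 0.0294 with its brightest probe.

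For *miR-486-5p*, limma's 7 lower and 3 higher members became 15 and 5 with median scaling (14.0% and 6.43% of all genes), 22 and 12 with normexp (22.4% and 21.5%) and likewise 22 and 12 with an intensity trend (24.2% and 21.5%). They became 19 and 10 over probes well above background on all arrays (20.3% and 17.5%), 18 and 8 with 1 value per gene (16.9% and 13.5%), and 4 lower if every probe had to be called (4.83%), when *HELLS*, *UHRF1* and *CBX5* were lost. They were 0 and 0 in limma without a filter (24 and 14 members had a probe with an unadjusted p below 0.05) and in limma on the authors' values (24 and 15). After *miR-486-3p*, the 27 lower calls were all kept with median scaling, normexp, an intensity trend and 1 value per gene. *CBX5* was lost with quantile normalization, *CBX3* without a filter, both on the authors' values, and *HDAC9* over probes well above background on all arrays. If every probe had to be called, *NSD1*, *NSD2*, *KDM2B*, *HDAC6*, *CBX1*, *CBX3* and *MLLT3* were lost. For that strand, 11 higher became 5 with median scaling (19.2% of all genes), 7 without a filter (19.9%) and 6 if every probe had to be called (25.6%). The calls of *EZH1*, *SETD7* and *HDAC7* were lost with median scaling, beside the 3 that changed sign, and those of *DNMT3A*, *EZH1*, *SETD7*, *KDM6A* and *KAT2B* without a filter. Between the strands, 21 lower and 8 higher became 32 and 4 with median scaling (37.5% and 18.1%), 5 higher without a filter (13.8%) and 5 higher if every probe had to be called (20.8%). The methods' t-test was run as the same fit without moderation, so that it takes the spread of the mock arrays for the single strand arrays; between the strands it is not a test of 2 replicated groups. At an unadjusted p below 0.05 it called 13 lower and 5 higher members with *miR-486-5p* (13.5% and 11.8% of all genes), then 24 and 6 with the other strand (22.3% and 18.9%), and 17 and 7 between the strands (19.6% and 16.9%). With Benjamini-Hochberg adjustment it gave 0 in each comparison and direction.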
